A study of Mus musculus with 217 samples.

Results

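The striatum and the cortex of the same LacQ140 mice were compared at 6 months of age, in 20 of the 217 libraries of the series. The members were chosen by their labels: the 10 striatal and the 10 cortical libraries of mice that carried the mutant allele and stayed on IPTG, paired by the mouse. LacQ140 mice are C57BL/6 animals with 1 *Htt* allele that holds an expanded CAG repeat behind *Lac* operators, labelled Hdh(LacO-140Q/+), and with a beta-actin-LacIR transgene that makes the *Lac* repressor throughout the body. IPTG, a lactose analog, lifts the repressor from the allele. Expression of m*Htt* was thus maximal from embryonic day 5, when dosing of the dams began, until the tissue was taken. The paper describes the lowering without IPTG as moderate, so the allele is not silent then. The comparison group was WT + IPTG (10 mice, 20 libraries), which had no mutant allele but carried the same transgene and received IPTG from the same embryonic day. WT mice of the same age with the transgene and without IPTG (10 mice, 20 libraries) served to define genes that mark each region. They were not compared with LacQ140 mice, except as pooled controls in 1 alternative fit. Their libraries also shared in the estimate of the spread when genotypes were compared within 1 region. Every group had 5 females and 5 males, the right striatum and right cortex were labelled, and all of these libraries were labelled as 1 batch. LacQ140_A mice never received IPTG, and LacQ140_2M mice received it from embryonic day 5 until 2 months of age (10 mice, 20 libraries each, 6 months old). Both carried the mutant allele and the transgene, and their values are only described. Their libraries also entered the fits within 1 region and 1 alternative fit over all libraries of this age. The question was how much of the difference between the 2 regions remained when mutant huntingtin was fully expressed.

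The striatum is built mostly of GABAergic spiny projection neurons, which receive cortical glutamate and midbrain dopamine. Those of the direct pathway carry the D1 dopamine receptor with substance P and dynorphin, and those of the indirect pathway carry the D2 receptor with the adenosine receptor encoded by *Adora2a* and with enkephalin. A small population of large cholinergic interneurons lies among them. The cortex is dominated by glutamatergic projection neurons, whose identity is set by transcription factors such as TBR1 and the NEUROD family. Reduced expression of spiny neuron genes is a well-known feature of Huntington's disease and its models.

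Summed counts lay between 39311796 and 58941671 per LacQ140 striatum and between 41122524 and 52754378 per LacQ140 cortex, and mitochondrial transcripts made up 6.49% to 8.88% and 7.06% to 10.38% of them. Levels are given in CPM, which are counts scaled to a common library total with TMM factors over the 100 libraries of this age. Regional differences are log2 fold changes of striatum over cortex from edgeR's quasi-likelihood test with the mouse as a block, so a positive value is higher in striatum. A gene was called at a Benjamini-Hochberg adjusted p-value under 0.05 with a change of at least 20%. *Htt* (ENSMUSG00000029104, chromosome 5, 34761740 to 34912534 on GRCm38), which counts both alleles, was at 86.0, 98.9 and 114 CPM (lowest, median and highest) in LacQ140 striatum and at 81.9, 94.7 and 112 CPM in LacQ140 cortex. The regions overlapped, with a regional log2 fold change of 0.09 (SE 0.0557, adjusted p = 0.257, edgeR). Against WT + IPTG mice *Htt* was lower in LacQ140 cortex (log2 -0.36, adjusted p = 0.00428) and was not called in striatum (-0.12, adjusted p = 0.283).

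Tissue from neighbouring structures was present in some libraries, and it was not equal between the genotypes. *Prkcd*, which is abundant in thalamic relay neurons, was at 10.7, 14.1 and 35 CPM in LacQ140 striatum and at 12.1, 37.5 and 151 CPM in the striatum of WT + IPTG mice, where 5 libraries (F5, M1, M2, M3 and M5) were above 50 CPM and no LacQ140 library was. The summed level of the 8 thalamic marker genes ran from 85.4 to 136 CPM in the striatum of LacQ140 mice (median 101) and from 84.8 to 371 CPM in that of WT + IPTG mice (median 139). *Ttr*, the main transcript of the choroid plexus, exceeded 500 CPM in 4 mice, in the cortex of LacQ140 F1 and of WT + IPTG F4 and M1 and in the striatum of WT + IPTG M5. Counts of genotype differences in the regional contrast that move by more than 1.5 times without these mice are also given without them. Within striatum 6 of the 8 thalamic marker genes were called lower in LacQ140 than in WT + IPTG mice and 0 higher, where 7.93% of all genes were called. The comparisons of genotypes within 1 region thus carry this difference in tissue. They were not refitted without these mice, so how far their other calls depend on them was not tested.

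The region separated the 40 LacQ140 and WT + IPTG libraries along their first principal component. It held 73.9% of the variance of 13488 genes, and on it all 20 striatal libraries lay on one side (35.92 to 46.44 in LacQ140, 36.35 to 50.15 in WT + IPTG) and all 20 cortical libraries on the other (-46.35 to -36.86 and -46.39 to -35.26). The third component, with 4.57% of the variance, separated the genotypes in both regions. On it LacQ140 libraries lay from -25.24 to -2.59 and WT + IPTG libraries from 2.21 to 19.72. In LacQ140 mice 10567 of 35737 genes tested differed between striatum and cortex (29.6%), of which 5018 (14%) were higher in striatum and 5549 (15.5%) were higher in cortex. In WT + IPTG mice 10578 genes (29.6%) were called. At a difference of at least 2-fold, LacQ140 mice had 3770 genes (10.5%), 1469 striatal and 2301 cortical. Many of these were at low levels, and 551 striatal and 693 cortical genes had a mean log2 CPM of at least 1. The libraries of the 2 regions did not overlap for 4706 genes, or 13.2% of those tested. Both genotypes were called for 8516 genes, 80.6% of the LacQ140 calls and 80.5% of the WT + IPTG calls. Of these shared genes 8499 had the same sign and 17 had opposite signs. Some of the 17 were hardly detected, with a mean log2 CPM over the 40 libraries as low as -4.41.

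**Figure D1:**
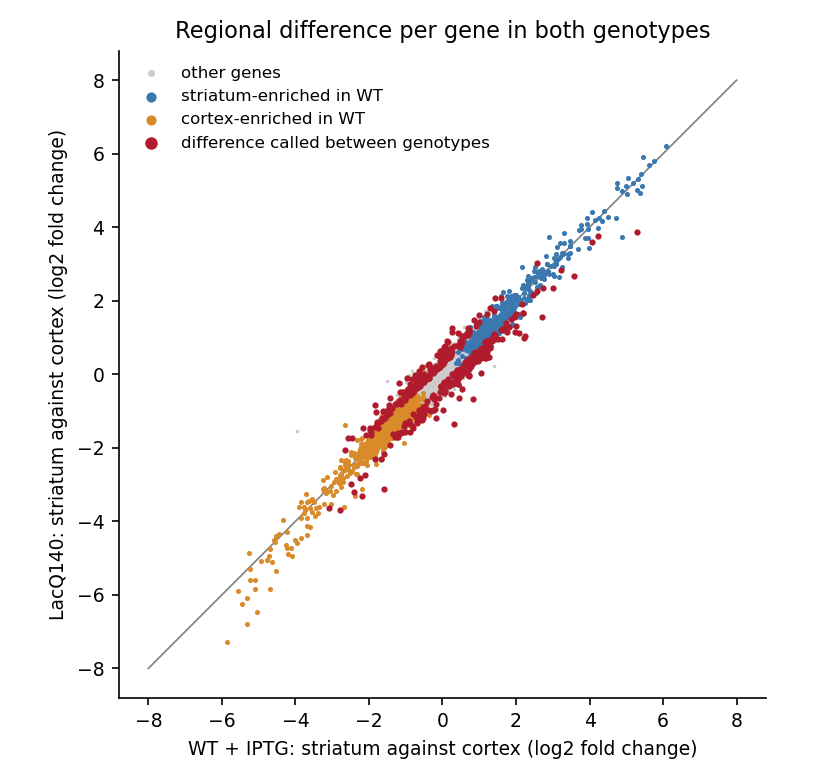
Log2 fold change of striatum over cortex in WT + IPTG (x axis) and LacQ140 mice (y axis) for 13488 genes with a mean log2 CPM of at least 1, with the line of equal values. Genes enriched at least 2-fold in a region of WT mice lie along the line, up to *Drd2* at 6.20 in LacQ140 mice, and genes with a called difference between genotypes (red) lie beside it.

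The genes highest in LacQ140 striatum relative to cortex included markers of indirect pathway spiny neurons and of cholinergic neurons. *Drd2* (ENSMUSG00000032259, chromosome 9, 49340627 to 49408177), the D2 dopamine receptor, was at 119, 155 and 192 CPM in striatum and 0.664, 2.04 and 4.21 CPM in cortex. Every striatum was far above every cortex, a 73.3-fold difference (log2 6.20, SE 0.250, adjusted p = 5.9e-19, edgeR, higher in 10 of 10 mice). The other 9 genes that led the list in striatum had log2 fold changes of 5.12 to 5.92. They were *Serpina9*, *Cd4*, *Sh3rf2*, *Adora2a*, *Syndig1l*, *Ido1*, the developmental transcription factors *Six3* and *Isl1*, and the acetylcholine synthesis enzyme *Chat*. In WT + IPTG mice the same 10 genes had log2 fold changes of 4.75 to 6.07, and for none of the 10 was the regional difference called as different between genotypes. Within striatum *Drd2*, *Adora2a*, *Sh3rf2* and *Ido1* were lower in LacQ140 than in WT + IPTG mice, by log2 values of -0.45 to -0.34, and *Isl1* was higher (0.29).

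On the cortical side, predicted genes left aside, *Slc17a7* (ENSMUSG00000070570, chromosome 7, 45163949 to 45176142), the vesicular glutamate transporter of cortical neurons, led with 900, 1085 and 1263 CPM in LacQ140 cortex and 2.72, 7.39 and 63.1 CPM in LacQ140 striatum. The regions did not overlap, and cortex was 110-fold higher (log2 -6.78, SE 0.469, adjusted p = 2.5e-13, edgeR). The striatal end of this range was set by mouse F1, while in WT + IPTG striatum the transporter was at 2.77, 28.9 and 73.3 CPM. The next 9 genes had log2 fold changes of -6.46 to -5.34 and included the transcription factors *Neurod6*, *Neurod2*, *Emx1* and *Tbr1*, the vesicular zinc transporter *Slc30a3*, the neurite growth gene *Nrn1*, and *Dkkl1* and *Trbc2*. None of these 10 had a called difference between genotypes, and the values of that difference ran from -1.47 to -0.34. The amount of cortical transcript in striatal libraries, as *Slc17a7* gives it, differed between mice, and its part in these values was not tested.

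**Figure D2:**
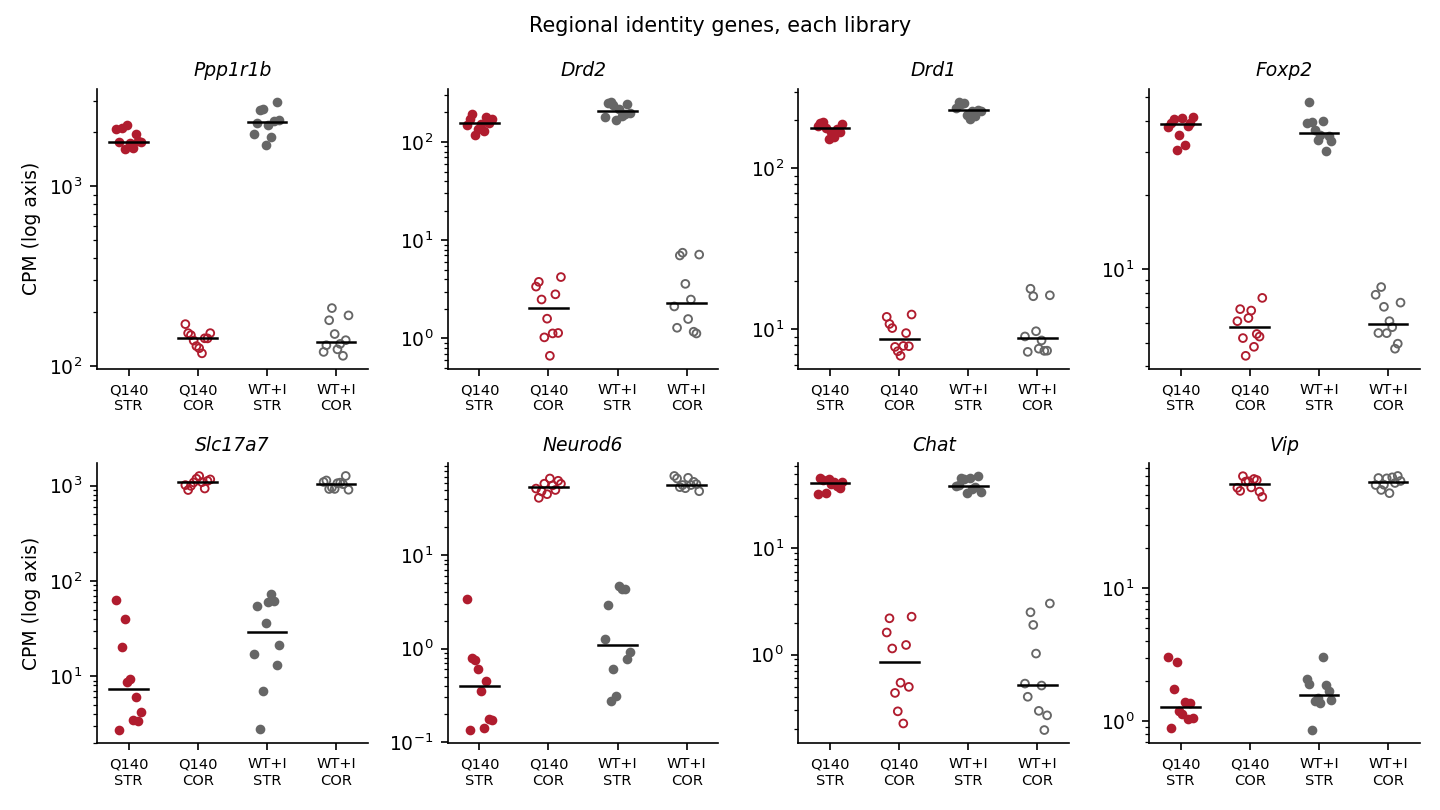
CPM on a log axis of 8 genes in each library of LacQ140 (Q140, red) and WT + IPTG (WT+I, grey) mice, striatum (STR, filled) and cortex (COR, open), with the median as a line. For each gene the 10 striata and 10 cortices of LacQ140 mice do not overlap, from *Drd2* (119 CPM or more against 4.21 CPM or less) to *Slc17a7* (63.1 CPM or less against 900 CPM or more).

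Spiny neuron signalling genes stayed striatal in LacQ140 mice, with a smaller regional difference for some of them. Of 20 such genes, 18 were higher in LacQ140 striatum, 0 were higher in cortex and 2 were not called, against 19 higher in WT + IPTG striatum. Their median regional log2 fold change was 2.51 in LacQ140 and 2.65 in WT + IPTG mice. For 7 of the 20 the difference itself was smaller in LacQ140 mice and for 0 it was larger, where 495 of all 35737 genes (1.39%) were called, 266 of them lower (0.744%) and the others higher (0.641%). The sign of the difference was negative for 18 of the 20, with a median of -0.21, beside -0.008 over all genes tested. The count was 4 of 20 without the mice with thalamic markers, and 6 without those with choroid plexus markers. Within striatum 13 of the 20 were lower in LacQ140 than in WT + IPTG mice and 0 were higher, where 7.93% of all genes were called. The 20 genes were chosen with earlier results of these data known, so these counts describe the list and are no test of it. The summed level of the list was 10572, 12739 and 14081 CPM in LacQ140 striatum and 13472, 15549 and 18616 CPM in WT + IPTG striatum. In a bulk sample a smaller number of spiny neurons and less RNA per spiny neuron cannot be told apart.

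*Ppp1r1b* (ENSMUSG00000061718, chromosome 11, 98348404 to 98357796) encodes DARPP-32, the phosphatase inhibitor that relays dopamine signals through cAMP. It was at 1613, 1777 and 2194 CPM in LacQ140 striatum and 117, 142 and 171 CPM in cortex, so the regions stood far apart. The 13.2-fold difference (log2 3.72, SE 0.0782) compared with a log2 of 3.96 in WT + IPTG, and the genotype difference of -0.24 was not called (adjusted p = 0.331, edgeR). Its level within striatum was lower in LacQ140 mice (log2 -0.30, adjusted p = 0.0121). *Rgs9*, which shortens G protein signals, likewise kept a log2 difference of 4.90, with a genotype difference of -0.13 that was not called, and was lower within striatum (-0.33, adjusted p = 5.1e-04).

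*Arpp21* (ENSMUSG00000032503, chromosome 9, 112065091 to 112235938), a cAMP-regulated phosphoprotein of spiny neurons, was at 837, 989 and 1091 CPM in LacQ140 striatum, at 284, 310 and 328 CPM in LacQ140 cortex, at 1259, 1499 and 1695 CPM in WT + IPTG striatum and at 286 to 365 CPM in WT + IPTG cortex. Striatum remained above cortex in all LacQ140 mice, but their striata lay below every WT + IPTG striatum. The per-mouse differences ran from 1.56 to 1.75 in LacQ140 and from 1.95 to 2.37 in WT + IPTG mice and did not overlap, a change of -0.52 (SE 0.0574, adjusted p = 2.3e-06, edgeR). The sodium channel subunit *Scn4b* was at 699, 923 and 1103 CPM in LacQ140 striatum and 1229, 1436 and 1716 CPM in WT + IPTG striatum. Its regional log2 difference was 3.59 against 4.06, a change of -0.47 (adjusted p = 0.0138, edgeR) that was not called without the 5 WT + IPTG mice with thalamic markers (-0.54, adjusted p = 0.086). The phosphodiesterase *Pde1b* changed by -0.37 (adjusted p = 0.00231). The cannabinoid receptor *Cnr1* changed by -0.55 (adjusted p = 0.00838), a call also lost without those mice (-0.62, adjusted p = 0.068). The phosphatase *Ptpn5* changed by -0.28 (adjusted p = 0.00790) and was not called in 5 of 30 other fits.

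*Ryr1* (ENSMUSG00000030592, chromosome 7, 29003344 to 29125179), a calcium release channel, had the largest narrowing of the list. It was at 10.1, 15.3 and 22.1 CPM in LacQ140 striatum, 5.12, 7.70 and 10.4 CPM in LacQ140 cortex and 24.1, 35.4 and 49.8 CPM in WT + IPTG striatum. The lowest LacQ140 striatum overlapped the highest cortex, and the regional log2 difference was 1.0 against 2.23 (change -1.22, SE 0.194, adjusted p = 5.5e-04, edgeR). *Pde10a*, the phosphodiesterase of spiny neurons, changed by -0.47 (adjusted p = 0.0391), a call that was lost in 18 of the 30 other fits. The 2 genes of the list without a call in LacQ140 mice were *Prkcb* (log2 -0.04), which was not called in WT + IPTG mice either (0.18), and the calcium channel gene *Itpr1* (0.22), which was called in WT + IPTG mice (0.49) but whose genotype difference of -0.27 was not.

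Markers of the indirect pathway were mostly lower in LacQ140 striatum, and those of the direct pathway moved both ways, with few called changes of the regional difference. Over all genes 7.93% were called within striatum, and both lists were chosen with earlier results of these data known. Of the indirect pathway genes 4 were lower and 1, the transcription factor *Sp9*, was higher (0.42) in LacQ140 than in WT + IPTG striatum. Of the direct pathway genes 2 were lower, *Drd1* and *Sfxn1*, and 3 were higher, *Isl1* (0.29), the transcription factor *Ebf1* (0.29) and *Eya1* (0.55). The median genotype difference of the direct pathway list was 0.20, positive for 6 of its 9 genes. Of 9 direct pathway genes 7 were higher in LacQ140 striatum, and all 5 measured indirect pathway genes were. *Penk* (ENSMUSG00000045573, chromosome 4, 4133531 to 4138819), the enkephalin precursor, was at 966, 1024 and 1143 CPM in LacQ140 striatum and at 1380, 1732 and 2087 CPM in WT + IPTG striatum. Those ranges did not overlap (log2 -0.72, adjusted p = 8.5e-16, edgeR, within striatum). Its regional difference was 4.24 against 4.71, which was not called as different (-0.47, SE 0.161, adjusted p = 0.183). *Drd2* and *Adora2a* were lower in LacQ140 striatum by log2 values of -0.45 (adjusted p = 7.0e-05) and -0.44 (adjusted p = 2.2e-05). Their low cortical levels, with medians of 2.04 and 4.63 CPM in LacQ140 and 2.30 and 5.37 CPM in WT + IPTG, gave cortical log2 values of -0.66 and -0.61 that were not called. Their regional differences were 6.20 and 5.44 in LacQ140 against 6.07 and 5.39.

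In the direct pathway *Drd1* (ENSMUSG00000021478, chromosome 13, 54051183 to 54055705) was at 153, 177 and 195 CPM in LacQ140 striatum, 6.84, 8.67 and 12.3 CPM in LacQ140 cortex and 202, 230 and 259 CPM in WT + IPTG striatum. The striatal ranges of the genotypes did not overlap, yet the regional difference of 4.27 against 4.50 was not called as different (-0.23, adjusted p = 0.682, edgeR). *Tac1* and *Pdyn*, which encode substance P and dynorphin, had regional log2 differences of 3.96 and 2.82, with genotype differences of 0.20 and 0.19 that were not called. *Chrm4*, a muscarinic receptor, changed by -0.42 with an adjusted p of 0.0458, and 20 of the 30 other fits did not call it. *Sfxn1*, a mitochondrial serine carrier, was not called in LacQ140 mice (log2 0.02 against 0.29, change -0.27, adjusted p = 0.00523), and in 13 of the 30 other fits the change was under 20% and was not called. *Eya1*, a developmental transcriptional coactivator, was cortical in WT + IPTG mice (-0.83) and was not called in LacQ140 mice (-0.14), a change of 0.69 (adjusted p = 1.4e-04).

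Transcription factors of the striatal lineage had no called genotype difference, although some changed in level. Of 22 genes 17 were higher in LacQ140 striatum and 2 in LacQ140 cortex, against 16 and 2 in WT + IPTG mice, and 0 of the 22 had a called genotype difference. The median was 2.09 in LacQ140 and 2.04 in WT + IPTG mice. *Foxp2* (ENSMUSG00000029563, chromosome 6, 14901349 to 15441977), a forkhead factor of spiny neurons, was at 30.4, 38.8 and 41.7 CPM in LacQ140 striatum and 4.42, 5.77 and 7.61 CPM in cortex, with a 6.42-fold difference. *Bcl11b* (CTIP2) and *Foxp1* had log2 differences of 2.16 and 1.80, and the retinoic acid receptor *Rarb* and the homeobox gene *Dlx6* had 4.26 and 3.20. *Dlx1* and *Sp8*, which are also expressed in cortical interneurons, were the 2 higher in cortex, at -0.80 and -0.74. The genotype differences of these 7 genes lay between -0.18 and 0.18, and over the list from -0.28 to 0.70, the highest at *Gsx2*. Within striatum 6 of the 22 were higher in LacQ140 than in WT + IPTG mice, among them *Dlx5* (0.43) and *Zfp503* (0.46), and 1 was lower, the retinoid receptor *Rxrg* (-0.47). Over all genes 7.93% were called there, and this list was chosen with earlier results of these data known.

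Transcription factors of cortical projection neurons were higher in LacQ140 cortex for 17 of 22 genes and higher in striatum for 2, *Pou3f1* and *Tle4*. WT + IPTG mice had 18 and 2. *Neurod6* (ENSMUSG00000037984, chromosome 6, 55677822 to 55681263), a transcription factor of glutamatergic neurons, was at 41.4, 54.2 and 66.7 CPM in LacQ140 cortex and 0.134, 0.397 and 3.39 CPM in LacQ140 striatum, an 88.1-fold difference without overlap of the regions. The only called genotype difference of the list was at *Bcl11a* (CTIP1), at 40.5, 49.5 and 53.8 CPM in LacQ140 striatum, 46.7, 52.0 and 66.8 CPM in LacQ140 cortex and 30.8, 39.4 and 45.6 CPM in WT + IPTG striatum. Its cortical bias of -0.56 in WT + IPTG was -0.13 and not called in LacQ140 mice (change 0.42, SE 0.0819, adjusted p = 0.00454, edgeR), but without the mice with thalamic markers the change was not called (0.36, adjusted p = 0.17).

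Among 20 markers of cortical projection neurons and their layers, 14 were higher in LacQ140 cortex and 3 in striatum, with 16 and 3 in WT + IPTG mice. *Rprm*, a layer 6 marker, rose in LacQ140 striatum, to 9.91, 15.0 and 24.4 CPM from 4.93, 7.46 and 14.2 CPM in WT + IPTG. Its cortical bias was -1.72 against -2.56 (change 0.84, adjusted p = 0.00626, edgeR), and the change of 0.82 without the mice with thalamic markers was not called (adjusted p = 0.11). *Cplx3*, a complexin of subplate neurons, went the other way (-3.30 against -2.20, change -1.10, adjusted p = 0.0349), but the change was -0.17 without those 5 mice and was not called in 16 of the 30 other fits.

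Interneuron genes had no called genotype difference of their regional contrast. All 8 cholinergic genes were called, 7 higher in LacQ140 striatum and *Zic4* higher in cortex (-0.35, adjusted p = 0.0161), with the same counts in WT + IPTG mice and no called genotype difference. *Chat* (ENSMUSG00000021919, chromosome 14, 32408203 to 32465989) was at 32.7, 41 and 46.5 CPM in LacQ140 striatum and 33.2, 39 and 48.1 CPM in WT + IPTG striatum, ranges that overlapped throughout, and at 0.225, 0.842 and 2.27 CPM in LacQ140 cortex. The choline transporter *Slc5a7* had a log2 difference of 5.11. Of 14 GABAergic genes 7 were higher in LacQ140 striatum and 5 in cortex, with 0 called genotype differences. The GABA synthesis and transport genes *Gad1* and *Slc32a1* were striatal (1.24 and 2.13), and *Vip* (ENSMUSG00000019772, chromosome 10, 5639218 to 5647617), the peptide of a cortical interneuron class, was at 48.6, 60.3 and 69.6 CPM in LacQ140 cortex and 0.881, 1.27 and 3.05 CPM in striatum. *Sst* was not called (-0.06, adjusted p = 0.687). *Pvalb* was cortical in LacQ140 mice (-0.46, adjusted p = 0.0143) and 0.13 in WT + IPTG mice, but the difference of -0.59 was not called (adjusted p = 0.204). Within striatum *Pvalb* and the cholecystokinin gene *Cck* were lower in LacQ140 than in WT + IPTG mice (-0.66, adjusted p = 0.0394, and -0.90, adjusted p = 0.0410, edgeR). *Cck* was at 214 to 291 CPM in LacQ140 cortex, and at 5.03 to 21.1 and 4.80 to 28.9 CPM in LacQ140 and WT + IPTG striatum. The part of cortical transcript in these striatal values was not tested.

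Glial and vascular genes differed between regions mostly by less than 2-fold. Of 15 oligodendrocyte genes 13 were higher in LacQ140 striatum and 0 in cortex, as in WT + IPTG mice, and the median was 0.92 against 1.10. Of these 15 genes 2 had a called smaller difference in LacQ140 mice and 0 a larger one, beside 0.744% and 0.641% of all genes, and 0 were called without the mice with thalamic markers or without those with choroid plexus markers. Within striatum 6 of the 15 were lower in LacQ140 than in WT + IPTG mice, where 7.93% of all genes were called. This list, too, was chosen with earlier results of these data known. *Aspa*, which breaks down N-acetylaspartate, was at 18.4, 24.9 and 37 CPM in LacQ140 striatum, 10.9, 15.0 and 19.3 CPM in LacQ140 cortex and 28.9, 33.7 and 50.2 CPM in WT + IPTG striatum. The LacQ140 regions overlapped slightly. Its change was -0.51 (adjusted p = 0.0247, edgeR), and it was lost in 10 of the 30 other fits. The summed oligodendrocyte level was 10196, 11688 and 12847 CPM in LacQ140 striatum and 13171, 15024 and 16835 CPM in WT + IPTG striatum, and its part in other results was not tested. Of 12 astrocyte genes 2 were striatal, among them the angiotensinogen gene *Agt* (1.25), and 5 were cortical, among them the glutamate transporter *Slc1a2* (-0.55). Of 11 vascular genes 7 were cortical, and all 6 meningeal genes and all 5 blood genes were. None of 11 microglial genes was called in LacQ140 mice, while 5 were striatal in WT + IPTG mice. The genotype difference was negative for all 11 but called for 0, with medians of the regional values of 0.13 in LacQ140 and 0.24 in WT + IPTG mice.

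Receptors and channels divided between the regions in both genotypes. Over all genes 29.6% were called between the regions in LacQ140 mice, and 1.39% had a called genotype difference. These lists, too, were chosen with earlier results of these data known, so their counts describe them and are no test. Of 26 glutamate and GABA receptor genes 12 were striatal and 8 cortical in LacQ140 mice, from the metabotropic receptor *Grm2* at -4.72 to *Grm4* at 1.63. The GABA-A subunits *Gabra4* and *Gabrd* had the called differences of this list, with regional values of 0.62 against 1.11 (change -0.49, adjusted p = 0.00259, edgeR) and 0.93 against 1.33 (change -0.40, adjusted p = 2.3e-04). *Gabrd* was called in all 30 other fits, and *Gabra4* was not called in 2 of them. Of 24 neuropeptide and monoamine receptor genes 11 were striatal and 9 cortical, and the serotonin receptor *Htr2c* was the 1 with a called difference (1.49 against 0.85, change 0.64, adjusted p = 0.0235), which 4 of the 30 other fits did not call. Of 23 potassium and sodium channel genes 10 were striatal and 8 cortical, with 1 called difference at *Kcnh4* (0.95 against 1.43, change -0.48, adjusted p = 0.0278), which 10 of the 30 other fits did not call. Among the genes of these 3 lists *Gabrd* alone was called without the mice with thalamic markers.

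The genes marking each region in the WT mice without IPTG gave a measure that used no LacQ140 or WT + IPTG library. There were 609 striatum-enriched and 774 cortex-enriched genes, called at 2-fold or more there with a mean log2 CPM of at least 1. Of the 609, 599 (98.4%) were called higher in LacQ140 striatum and 603 (99.0%) in WT + IPTG striatum, beside 14% of all genes in LacQ140 mice. At 2-fold or more the numbers were 463 (76.0%) and 521 (85.6%). Of the 774, all 774 were called higher in LacQ140 cortex and 773 in WT + IPTG cortex, and 635 (82%) and 644 (83.2%) at 2-fold or more. Among the 609 only 2 had a negative value in LacQ140 mice, and neither was called. The LacQ140 libraries of the 2 regions did not overlap for 535 (87.8%) of the striatum-enriched and 732 (94.6%) of the cortex-enriched genes, beside 13.2% of all genes tested.

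Called differences between genotypes in striatum-enriched genes were mostly toward a smaller regional difference. Of the 609 striatum-enriched genes, 64 (10.5%) had a called smaller difference and 8 (1.31%) a larger one. Of the 774 cortex-enriched genes, 36 (4.65%) had a smaller and 28 (3.62%) a larger difference. Over all genes 0.744% were called lower and 0.641% higher. Among all genes with a mean log2 CPM of at least 1, as these lists require, 1.66% were called lower and 1.49% higher. Without the mice with thalamic markers 27 striatum-enriched genes had a smaller and 1 a larger difference, and 16 cortex-enriched genes a smaller and 5 a larger one. The corresponding counts without the mice with choroid plexus markers were 38 and 1, and 14 and 10. The median genotype difference was -0.092 and -0.002 for these lists, and -0.008 over all genes tested. Per mouse, the median striatum-enriched gene was 1.342 ± 0.066 log2 units higher in striatum in LacQ140 and 1.447 ± 0.061 in WT + IPTG mice (SD, n = 10 each), a difference of -0.105 (two-sided permutation test, p = 0.00174, adjusted over 3 values p = 0.00522). In 7 of the 10 LacQ140 mice it was below every WT + IPTG mouse. The corresponding values of cortex-enriched genes were -1.413 ± 0.070 and -1.432 ± 0.072, a difference of 0.019 (permutation p = 0.549, adjusted p = 0.688). The slope of each mouse's regional differences on those of WT was 0.946 ± 0.044 and 0.955 ± 0.053, a difference of -0.009 (permutation p = 0.688). When the lists were limited to the 360 genes enriched at 4-fold or more in either region, the striatal difference was -0.024 (permutation test, adjusted p = 0.789) and no longer passed the test. LacQ140_A mice, which received no IPTG, and LacQ140_2M mice, in which IPTG ended at 2 months, had striatal medians of 1.441 ± 0.067 and 1.474 ± 0.075 (SD, n = 10 each).

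**Figure D3:**
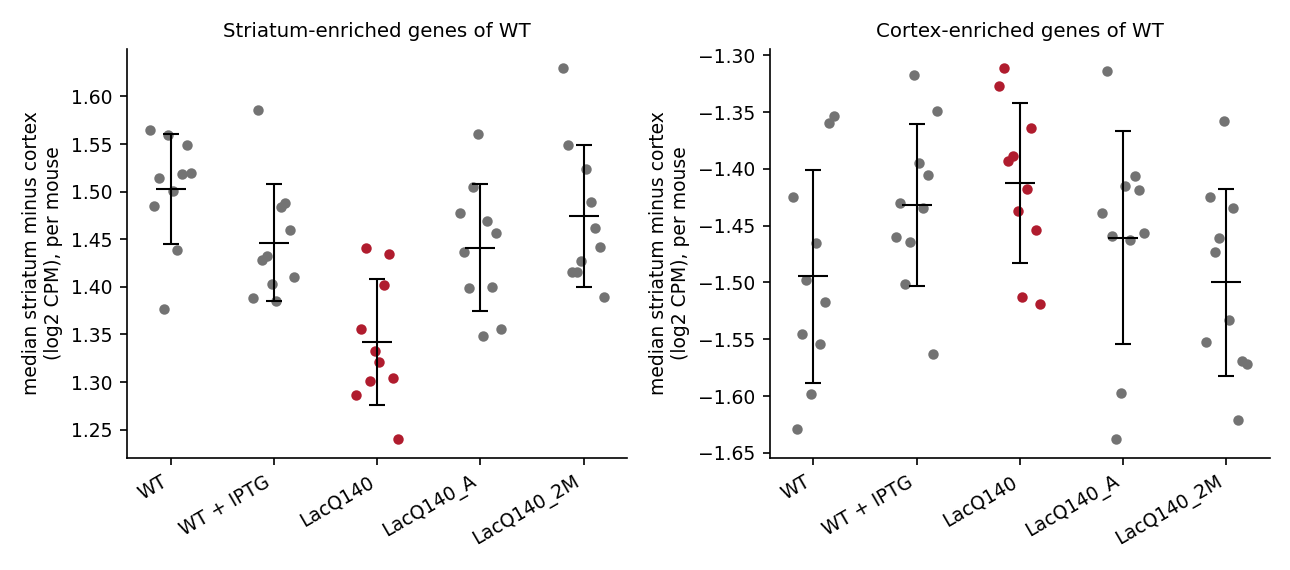
Median of striatum minus cortex (log2 CPM) per mouse for the 609 striatum-enriched genes (left) and the 774 cortex-enriched genes (right) of WT mice, in 5 groups of 10 mice, with the mean and SD. LacQ140 mice (red) average 1.342 on the left, below the 4 other groups, and -1.413 on the right. The genes were defined in the WT group itself.

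Many of the striatum-enriched genes were lower in LacQ140 striatum. Of the 609 striatum-enriched genes 154 were lower and 50 higher in LacQ140 than in WT + IPTG striatum, where 2840 of all genes (7.93%) were called, while in cortex 8 were lower and 8 higher against 317 genes (0.881%) in all. The 154 were chosen by their striatal change, and the same striata enter the regional contrast. Their values therefore follow in part from the choice and are no test. Their median log2 change was -0.42 in striatum and -0.08 in cortex, where 7 were called lower. The regional difference was called smaller for 60 of the 154. The counts within striatum and within cortex were not refitted without the mice with thalamic or choroid plexus markers. Of the 495 genes with a called genotype difference, 79.0% were called between genotypes in striatum alone, 18 genes (3.64%) in cortex alone, 6 in both and 80 in neither.

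**Figure D4:**
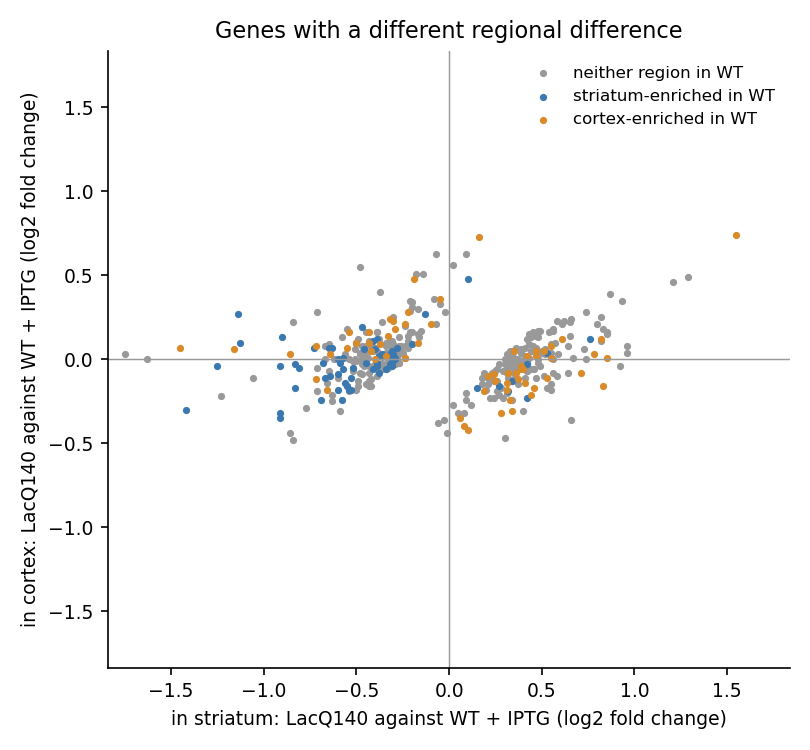
Log2 fold change of LacQ140 over WT + IPTG in striatum (x axis) and cortex (y axis) for the 425 genes with a called difference in regional contrast and a mean log2 CPM of at least 1. Blue points are striatum-enriched, orange points cortex-enriched and grey points neither. Most points spread along the x axis and lie near 0 on the y axis, as 79.0% of all 495 calls were called in striatum alone.

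The genes with the most negative change whose per-mouse differences did not overlap between genotypes were led by *Ddit4l* (ENSMUSG00000046818, chromosome 3, 137621612 to 137628333), an inhibitor of mTOR signalling. It was at 6.10, 10.7 and 13.6 CPM in LacQ140 striatum, 21.3, 25.5 and 30 CPM in LacQ140 cortex, 25.3, 30.5 and 39.5 CPM in WT + IPTG striatum and 23.0, 25.2 and 29.2 CPM in WT + IPTG cortex. The LacQ140 striata stood below all other libraries, and the gene turned from slightly striatal (0.30) to cortical (-1.35), a change of -1.64 (SE 0.125, adjusted p = 4.1e-09, edgeR). It was one of the 17 genes called with opposite signs in the 2 genotypes. *Cpne9*, a calcium-dependent phospholipid-binding copine, was cortical in both and more so in LacQ140 mice (-3.12 against -1.60). *Krt9*, a keratin, fell from 2.24 to 1.03 and kept a striatal bias.

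*Arpp19* (ENSMUSG00000007656, chromosome 9, 75037614 to 75060313), a cAMP-regulated inhibitor of protein phosphatase 2A, was at 348, 448 and 486 CPM in LacQ140 striatum, 282, 322 and 355 CPM in LacQ140 cortex, 675, 762 and 894 CPM in WT + IPTG striatum and 307, 332 and 366 CPM in WT + IPTG cortex. The LacQ140 regions overlapped slightly while the WT + IPTG regions did not, and the regional difference was 0.46 against 1.23 (change -0.77, SE 0.0647, adjusted p = 2.1e-08, edgeR). The others were *Ryr1*, the growth-related gene *Nrep* (-0.99 against -0.30), the transcriptional cofactor *Lmo2* (1.32 against 1.99) and the G protein regulator *Rgs14* (0.44 against 1.04). These changed in striatum, by log2 values of -1.13 to -0.47 there and of 0.00 to 0.19 in cortex.

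*Egr2* and *Ciart* differed in another way. *Egr2* (ENSMUSG00000037868, chromosome 10, 67535475 to 67542188), an activity-induced transcription factor, was at 9.53, 18.5 and 26.8 CPM in WT + IPTG striatum and 6.38, 7.97 and 11.3 CPM in WT + IPTG cortex, but at 5.71, 12.0 and 18.2 CPM and 6.89, 13.0 and 14.2 CPM in LacQ140 mice, where the regions overlapped. Its regional difference was 0.03 against 1.06 (change -1.03, adjusted p = 7.3e-06, edgeR), with values of -0.48 in striatum and 0.55 in cortex that were not called. *Ciart*, a circadian repressor, had -0.02 against 0.69, and it was called higher only in cortex (0.63, adjusted p = 0.00875). *Dusp1*, a MAP kinase phosphatase induced by activity and stress, had -0.65 against -0.09 (change -0.55, adjusted p = 2.4e-05) and was likewise higher in cortex alone (0.63, adjusted p = 0.0049). The 12 immediate early genes were listed with earlier results of these data known. Of them 5 were cortical and 2 striatal in LacQ140 mice, against 4 and 5 in WT + IPTG mice. A called genotype difference was present for 2, beside 1.39% of all genes. *Fos* was cortical in both genotypes (-0.79 and -1.03).

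The genes with the most positive change included *Kcng1*, *Tnnt2*, *Ptprh*, *Sox11*, *Eya1*, *Polr2a*, *Hivep3*, *Cbx8* and *Suv39h2*. *Kcng1* (ENSMUSG00000074575, chromosome 2, 168260117 to 168281736), a modulatory potassium channel subunit, was at 35.3, 42.8 and 50.8 CPM in LacQ140 striatum, 12.4, 17.4 and 24.3 CPM in LacQ140 cortex, 19.3, 27.0 and 32.3 CPM in WT + IPTG striatum and 17.4, 22.6 and 26.7 CPM in WT + IPTG cortex. It was higher in LacQ140 striatum than in every other library and lower in LacQ140 than in WT + IPTG cortex, with a regional difference of 1.27 against 0.25 (change 1.02, SE 0.111, adjusted p = 2.3e-06, edgeR). Some genes had a called regional difference of at least 2-fold in LacQ140 mice and no call in WT + IPTG mice. With predicted genes left aside and a mean log2 CPM of at least 1, *Kcng1* was the 1 such gene toward striatum. Its WT + IPTG value had an adjusted p of 0.0108 (edgeR) and missed the call only by the size of the change. *Kcng1* was also called striatal in WT mice without IPTG (0.40, adjusted p = 0.00119, edgeR). Under the same limits the 1 such gene toward cortex was *Rgs16* (-1.11 against -0.38), whose change of -0.74 was not called (adjusted p = 0.206). *Rgs16* was also called cortical in WT mice without IPTG (-1.19, adjusted p = 5.9e-08, edgeR), close to the LacQ140 value. Its level ran from 3.13 to 19.2 CPM in WT + IPTG striatum and from 3.42 to 6.73 CPM in LacQ140 striatum.

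*Sox11* (ENSMUSG00000063632, chromosome 12, 27334264 to 27342574), a transcription factor of immature neurons, was at 10.8, 13.8 and 15.1 CPM in LacQ140 striatum against 5.65, 7.76 and 9.07 CPM in LacQ140 cortex, while the WT + IPTG regions overlapped at 6.95, 7.89 and 10.1 and 5.86, 7.42 and 8.54 CPM. A regional difference of 0.87 thus stood beside 0.14 (change 0.73, adjusted p = 4.3e-05, edgeR). *Polr2a* (ENSMUSG00000005198, chromosome 11, 69733997 to 69758637), the large subunit of RNA polymerase II, was at 78.4 CPM or more in LacQ140 striatum, with a median of 97.7 CPM, and at 76.7 CPM or less in the other libraries of both genotypes. Its regional difference was 0.76 against 0.08 (change 0.68, adjusted p = 6.3e-05). The cardiac troponin gene *Tnnt2* lost most of a cortical bias (-0.24 against -1.19), and the zinc finger gene *Hivep3* (-1.01 against -1.63) lost part of its own. The phosphatase *Ptprh* (1.15 against 0.27) and the histone methyltransferase *Suv39h2* (0.55 against 0.07) were called striatal in LacQ140 mice.

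**Figure D5:**
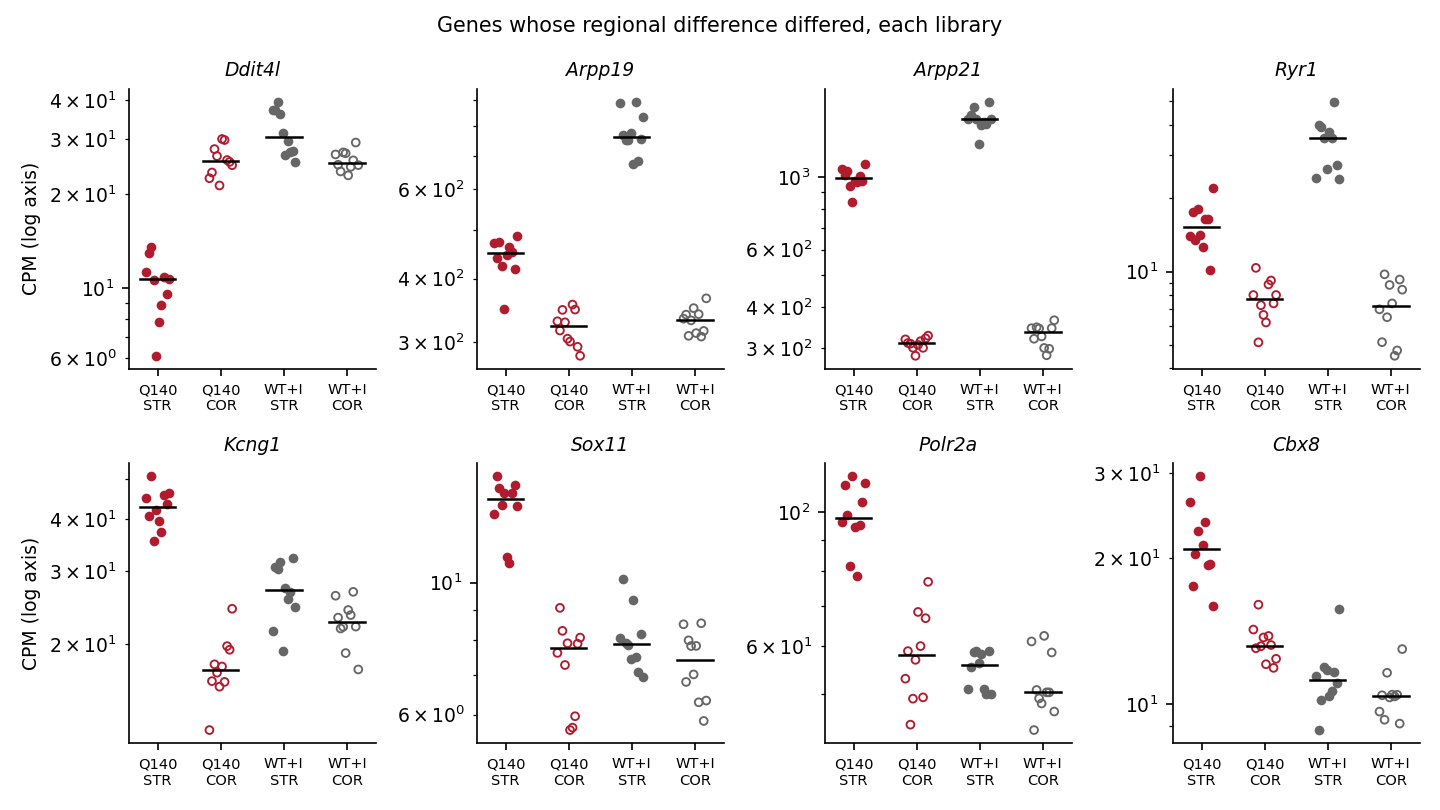
CPM on a log axis of 8 genes in each library, with groups and symbols as in the plot of identity genes and the median as a line. In the upper row the LacQ140 striata (filled red) lie below the WT + IPTG striata (filled grey), and in the lower row they lie above them, while the open cortical symbols of the 2 genotypes overlap.

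Some chromatin regulators and their developmental targets, a list of 18 genes, were more striatal in LacQ140 mice. Of these, 8 were striatal and 2 cortical in LacQ140 mice, against 4 and 3 in WT + IPTG mice, and 4 had a called difference toward striatum and 0 toward cortex, beside 0.641% and 0.744% of all genes. The list was chosen with earlier results of these data known, so these counts describe it and are no test of it. *Cbx8* (ENSMUSG00000025578, chromosome 11, 119036305 to 119040969), a subunit of Polycomb repressive complex 1, was at 15.9, 20.9 and 29.6 CPM in LacQ140 striatum, 11.9, 13.2 and 16 CPM in LacQ140 cortex and 8.83, 11.2 and 15.7 CPM in WT + IPTG striatum. The regions overlapped by a narrow margin in LacQ140 mice, and the regional difference was 0.68 against 0.12 (change 0.56, adjusted p = 6.7e-04, edgeR). The Polycomb-related gene *Sfmbt2* had 1.30 against 0.14 (change 1.16, adjusted p = 1.8e-05). *Wt1*, a developmental transcription factor kept silent in most neurons, was at 0.297, 0.591 and 1.19 CPM in LacQ140 striatum, at 0.0473, 0.152 and 0.273 CPM in LacQ140 cortex and at 0, 0.0258 and 0.144 CPM in WT + IPTG striatum. The LacQ140 striata lay above all other libraries at these low levels, and the regional difference was 1.98 against -1.86 (change 3.84, adjusted p = 8.6e-06). *Cbx8*, *Sfmbt2* and *Wt1* were called in all 30 other fits.

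Few genes enriched in a region of WT mice had no called regional difference in LacQ140 mice. Leaving out predicted genes, 8 striatum-enriched and 0 cortex-enriched genes were not called or had the other sign in LacQ140 mice. The 5 with the largest WT + IPTG value were *AC132106.1* (0.23 against 1.33), the collagen gene *Col6a1* (0.34 against 0.63), the imprinted noncoding RNA *Meg3* (0.28 against 0.47), the zinc transporter *Slc39a2* (-0.30 against 0.44) and the nuclease *Dnase1l2* (0.01 against 0.40). Of these, *Meg3* and *Slc39a2* were not called in WT + IPTG mice either (adjusted p = 0.0690 and 0.118). The genotype difference was called for *AC132106.1* alone (-1.10, adjusted p = 0.00486, edgeR), and not without the mice with thalamic markers (-0.71, adjusted p = 0.15). Housekeeping and pan-neuronal genes were not neutral between regions: of 15, 3 were striatal and 7 cortical in LacQ140 mice, among them *Actb* (0.63) and *Map2* (-0.69). The synaptic vesicle protein *Syp* was the 1 with a called genotype difference (-0.50 against -0.82, change 0.32, adjusted p = 0.00454).

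Without the 5 WT + IPTG mice with thalamic markers 142 genes had a called genotype difference, 54 higher and 88 lower, of which 124 were among the 495. Without the 4 mice with choroid plexus markers there were 208, of which 195 were among the 495. The median over striatum-enriched genes was -0.128 and -0.106, and the per-mouse difference was -0.117 (exact permutation test, adjusted p = 0.0360, 10 against 5 mice) and -0.114 (exact permutation test, adjusted p = 0.0136, 9 against 7 mice). Without the mice with thalamic markers the cortex-enriched difference was 0.071 and the slope difference -0.046 (exact permutation tests, adjusted p = 0.0773 each), against 0.019 and -0.009 with all mice.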

How the data were processed

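RNA was extracted from flash-frozen right striatum and right cortex, and libraries were sequenced as paired-end reads on an Illumina system. The authors deposited 1 table of expected counts per gene for the 100 libraries of 6 months (54532 genes, of which 54495 matched GENCODE vM21). The submitters' processing notes name the build GRCm38, and the aligner and counting program are not given in the sources used here. Of the nonzero values 33.55% were not whole, so counts were rounded. The study's 12-month table was not used here.

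Columns were assigned to groups by the sample labels, and all 100 libraries matched their labelled sex. Genes with at least 1 count were tested in edgeR 4.0.16 (R 4.3.3) with TMM factors, quasi-likelihood F-tests, a term for each mouse and a striatum-minus-cortex term for each genotype, over the 40 LacQ140 and WT + IPTG libraries. The difference between genotypes is the contrast of those terms. Single-region contrasts of the genotypes and the WT regional contrast were separate fits. The SE is the log2 fold change over the square root of F. Region-enriched genes (adjusted p-value under 0.05, at least 2-fold, mean log2 CPM of at least 1) came from the 20 WT libraries alone. Values per mouse used log2 CPM with a prior count of 2 and were compared by two-sided permutation tests with 100000 resamples, exact where mice were left out.

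Both regions came from the same animal by the mouse number in the labels. Deviations from the group mean correlated between the regions of one mouse by 0.233 on average in LacQ140, 0.171 in WT + IPTG and 0.232 in WT, against -0.026, -0.019 and -0.023 between different mice. No pair of libraries agreed within counting noise (270 pairs, smallest chi-square per degree of freedom 10.3). The 60 LacQ140, WT + IPTG and WT libraries held 37915538 to 68038831 counts, which limits low genes most.

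Genes named are those of the gene lists, the 10 most striatal and most cortical called genes with non-overlapping regions, the 10 most negative and most positive called genotype differences with non-overlapping mice, up to 5 region-enriched genes per list that were not called in LacQ140, and up to 5 genes per direction gained at 2-fold. Except for the lists, a mean log2 CPM of at least 1 was required, and predicted genes were not named. *Prkcd* and *Ttr* were named as tissue markers, and some genes that meet these rules are not reported here. The lists and rules were chosen with earlier results of these data known. Alternatives changed the block, tool (DESeq2 1.42.0), normalization, filter, sex term, libraries, control, fold bound, transcript length offset and single mice. The exclusion of mice with thalamic or choroid plexus markers, and the alternatives for WT + IPTG alone, were chosen after seeing the data. The fit was tested on simulated data.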

Additional observations from a re-analysis of the deposited data

Results flagged for a closer look

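In 18 of the groups of 10 values examined (6.6% of them), 1 value stood far from the other 9, where chance gives about 5%. In LacQ140 mouse F5 the striatum-minus-cortex log2 CPM was 4.09 for *Ppp1r1b* (3.53 to 3.83 in the other mice), 2.15 for *Ptpn5* (1.82 to 1.94), 0.18 for *Gabra4* (0.55 to 0.85), -0.99 for *Map2* (-0.77 to -0.53) and 1.02 for *Suv39h2* (0.32 to 0.63). In LacQ140 mouse M3 it was -0.25 for *Dusp1* (-0.86 to -0.55) and 1.24 for *Sox11* (0.73 to 0.96). It was 4.88 for *Rxrg* in LacQ140 M1 (3.57 to 4.17) and -3.55 for *Cck* in LacQ140 F1 (-5.54 to -4.53). In WT + IPTG mice it was -0.59 for *Sst* in F2 (-0.08 to 0.44), -1.57 for *Fos* in F1 (-1.17 to -0.72) and 0.74 for *Ptprh* in M4 (0.00 to 0.40). The median of striatum-enriched genes was 1.586 in WT + IPTG F2 (1.385 to 1.488 in the others).

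Among summed marker levels of LacQ140 libraries, the ependymal and choroid plexus list was at 1786 CPM in the cortex of F1 (28.6 to 120 in the others). The neuroblast list was at 55 CPM in the striatum of F2 (36.6 to 43.2) and the hippocampal list at 161 CPM in the cortex of M5 (95.9 to 130). The hypothalamic list was at 20.4 CPM in the striatum of M2 (2.74 to 11.6) and the blood list at 729 CPM in the cortex of M3 (337 to 534).

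The regional difference differed between the genotypes for 495 genes by edgeR's contrast, and the per-mouse median of striatum-enriched genes by -0.105 in the permutation test. The log2 differences, LacQ140 minus WT + IPTG, of the named genes with a smaller or more cortical value were *Pde10a* -0.47, *Pde1b* -0.37, *Arpp21* -0.52, *Ptpn5* -0.28, *Cnr1* -0.55, *Scn4b* -0.47, *Ryr1* -1.22, *Chrm4* -0.42, *Sfxn1* -0.27, *Cplx3* -1.10, *Aspa* -0.51, *Egr2* -1.03, *Dusp1* -0.55, *Gabra4* -0.49, *Gabrd* -0.40, *Kcnh4* -0.48, *Ddit4l* -1.64, *Cpne9* -1.52, *Krt9* -1.21, *Arpp19* -0.77, *Ciart* -0.71, *Nrep* -0.68, *Lmo2* -0.67, *Rgs14* -0.60 and *AC132106.1* -1.10. Those with a more striatal value were *Eya1* 0.69, *Rprm* 0.84, *Bcl11a* 0.42, *Htr2c* 0.64, *Sfmbt2* 1.16, *Cbx8* 0.56, *Wt1* 3.84, *Syp* 0.32, *Kcng1* 1.02, *Tnnt2* 0.95, *Ptprh* 0.88, *Sox11* 0.73, *Polr2a* 0.68, *Hivep3* 0.62 and *Suv39h2* 0.48.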

How the results depend on the processing

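The 10567 genes with a regional difference in LacQ140 mice ranged from 10057 with DESeq2 to 10954 without the replicate block for the mouse, and from 10219 to 10630 when single mice were left out. At 2-fold or more there were 3770, and 3883 in WT + IPTG mice. Without the mice with thalamic or choroid plexus markers there were 10547 and 10438.

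The 495 genes with a genotype difference became 354 without the replicate block, which drops the pairing by mouse, and *Pde10a*, *Chrm4* and *Aspa* were not called there. The other tools and settings gave 426 with all libraries of the age to 679 with pooled WT mice, and 606 with DESeq2. Leaving out single mice gave 392 (without LacQ140 F1) to 592 (without LacQ140 M1). At 2-fold or more there were 58. Without the mice with thalamic markers 142 were called, and without those with choroid plexus markers 208. Both fits have fewer mice, and the cause of the lower counts was not tested. The median difference of striatum-enriched genes per mouse was -0.024 at 4-fold enrichment, and the cause was not tested.

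Of 40 named genes with a called genotype difference, 26 were called in all 30 other fits and 14 were lost in at least 1, with 0 reversals. Of 88 named genes with a called LacQ140 regional difference, 85 were called in all of them, and *Pvalb*, *Zic4* and *Gsx2* were lost in some. Depth limits genes such as *Wt1* and *Sp8*, near or under 1 CPM.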

Other observations

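Markers of neighbouring structures and of smaller cell populations also divided the LacQ140 regions. Of 6 neuroblast genes 4 were striatal and 2 cortical in LacQ140 mice, against 3 and 2 in WT + IPTG mice, with *Sox11* the 1 called genotype difference. Of 9 ependymal and choroid plexus genes 5 were striatal and 1 cortical in both genotypes. Of 8 hippocampal genes 4 were striatal and 3 cortical in LacQ140 mice, against 3 and 3. Of 8 hypothalamic and pituitary genes 3 were striatal and 2 cortical in LacQ140 mice and 0 in either direction in WT + IPTG mice, with 0 called genotype differences. Of 8 thalamic genes 2 were striatal and 5 cortical in LacQ140 mice, against 3 and 3. The genotype difference of the regional contrast was negative for 7 of them and called for 0. Within striatum, however, 6 of the 8 were called lower in LacQ140 than in WT + IPTG mice and 0 higher.

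Longer transcripts had somewhat higher levels in both regions. The slope of log2 level on log2 transcript length over 13482 genes was 0.237 ± 0.063 in LacQ140 striatum and 0.175 ± 0.090 in LacQ140 cortex (SD, n = 10), a difference of 0.062 ± 0.11 that was positive in 6 of 10 mice (exact permutation test, p = 0.148). In WT + IPTG mice it was 0.028 (exact permutation test, p = 0.396).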
